A study of Mus musculus with 6 samples.

Results

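Neuropeptides and peptide hormones are small secreted signals that are cut from larger precursor proteins. The genes described here are 10 precursor genes of this kind, Calca, Calcb, Grp, Nmu, Cck, Npy, Gal, Tac1, Sst and Cartpt. They were chosen by name, without use of the measured values, and all 10 were on the array, among 18749 genes with a symbol. They were read by 12 probes, with 2 each for Calca and Cartpt. The array files used here carry no gene names, so a probe was assigned to a gene by its transcript accession in a RefSeq table of assembly GRCm38.p6.

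RNA came from 6 lines cultured from lung tumours, all of C57BL/6J mice with the genotype Rb1L/L, Trp53L/L, a mouse model of small cell lung carcinoma, so both groups share these conditional alleles. The labels call 3 lines SMC and 3 lines non-SMC, without spelling out the abbreviation, and sort them into 3 pairs of 1 SMC and 1 non-SMC line, numbered here as replicates 1 to 3 (pairs 1 and 3 female, pair 2 male). The sources used here do not give whether the lines of a pair came from the same tumour, what drove the deletion of the alleles, or how old the animals were. Each line was hybridised to 1 single-colour (Cy3) Agilent array, the question being which genes differ between the lines of a pair. The p-values of the main fit, with the pair as a term, measure the spread between 3 pairs of lines. Those of fits with no pair measure the spread between lines of a group. Those with a pair left out measure the spread between the remaining pairs.

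A neuropeptide precursor enters the secretory pathway, is cut by proprotein convertases in dense-core granules, is trimmed by a carboxypeptidase and is often amidated before release. The peptides then act on G protein-coupled receptors of the same or of neighbouring cells and are broken down by peptidases on the cell surface. In the lung, pulmonary neuroendocrine cells are the epithelial cells that store such peptides, among them calcitonin gene-related peptide and gastrin-releasing peptide. Small cell lung carcinoma is a neuroendocrine tumour known for making peptides of this kind, and gastrin-releasing peptide has long been described as a growth factor of its cells.

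Promoters are shown for 3 members. Cartpt and Calca were detected in all 6 lines with large differences between them, and Sst, like Tac1, was detected in no line. The 3 also hold the only full cAMP response elements and the only CAGCTG among the member promoters at hand. Their choice is therefore not independent of the motifs. The sequences are RefSeq's, build GRCm38.p6, 300 bases from 250 before to 50 after the annotated start, read 5′ to 3′ on the strand of the gene. Capitals mark the cAMP response element TGACGTCA, the site of CREB-family factors, its half-site TGACG on either strand (a full element holds the half-site on both strands), and the E-box CAGCTG. Cartpt lies at chr13:99900634-99900933 (minus strand), Sst at chr16:23890795-23891094 (minus strand) and Calca at chr7:114636308-114636607 (minus strand).
Cartpt: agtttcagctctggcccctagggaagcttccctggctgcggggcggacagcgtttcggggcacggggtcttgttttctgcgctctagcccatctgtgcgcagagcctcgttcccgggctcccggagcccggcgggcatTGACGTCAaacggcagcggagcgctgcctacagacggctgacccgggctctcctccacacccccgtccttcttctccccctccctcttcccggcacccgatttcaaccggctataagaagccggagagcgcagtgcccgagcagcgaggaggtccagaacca
Sst: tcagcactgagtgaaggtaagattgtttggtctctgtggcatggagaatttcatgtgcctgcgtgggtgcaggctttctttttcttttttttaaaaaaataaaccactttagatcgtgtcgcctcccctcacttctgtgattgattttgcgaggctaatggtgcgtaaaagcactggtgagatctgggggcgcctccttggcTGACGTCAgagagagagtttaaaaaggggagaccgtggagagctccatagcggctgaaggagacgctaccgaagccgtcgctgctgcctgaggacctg
Calca: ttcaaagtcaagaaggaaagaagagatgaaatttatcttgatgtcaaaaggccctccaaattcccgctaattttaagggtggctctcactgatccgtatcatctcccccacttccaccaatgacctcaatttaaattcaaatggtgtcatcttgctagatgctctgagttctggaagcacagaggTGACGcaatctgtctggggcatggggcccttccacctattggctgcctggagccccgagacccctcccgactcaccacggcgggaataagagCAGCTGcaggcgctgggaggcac
A promoter was at hand for 8 members, Calca, Nmu, Cck, Npy, Gal, Tac1, Sst and Cartpt. The full element stood in 2 of them, 112 to 105 bases before the start of Cartpt and 48 to 41 bases before that of Sst, against 1.79% of 32851 promoters of the same length. The half-site stood in 7 of the 8, all but Npy, against 20.8% of all promoters, and in Calca it lay 65 to 61 bases before the start. CAGCTG stood in Calca alone of the 8, with its first base 27 bases after the start, against 16.3% of all promoters. Among the 46 promoters of 39 other peptide precursor genes, 1 held the full element, 10 the half-site and 9 CAGCTG. These matches describe letters in a window and carry no test.

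Values are log2 of the processed signal minus the 75th percentile of the array, so a difference of 1 is a 2-fold change and 0 is the 75th percentile. Levels are compared between arrays for the same probe, never between probes. A probe counts as detected where the scanner software called it well above background, as it did for 64.1% to 68.5% of 41174 probes, and the lowest such signal lay between -6.71 and -6.04 on the 6 arrays. A gene was tested if it was detected on all 3 arrays of at least 1 group, which 19847 features passed. In a limma fit with the pair as a term, 31 features were higher in SMC lines (0.156%) and 601 lower (3.03%) at a Benjamini-Hochberg adjusted p under 0.05, and with the median of each array in place of the 75th percentile the counts were 239 and 973.

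The lines of both groups carried neuroendocrine markers, unevenly. Of 9 such markers, 8 or 9 were detected in each SMC line and 9, 8 and 7 in non-SMC replicates 2, 3 and 1. Their summed linear signal, in units of the 75th percentile, was 236 to 352 in SMC lines, 114 in non-SMC replicate 2, and 30.5 and 18.2 in non-SMC replicates 1 and 3. Much of the signal in these last lines was Ncam1, a cell adhesion gene at 4.74, 4.21 and 5.04 in SMC lines and 4.76, 4.36 and 3.92 in non-SMC lines (named after its values were seen). Without it the sums were 203 to 325 in SMC lines, 93.6 in non-SMC replicate 2, and at most 3.52 in non-SMC replicates 1 and 3. None of the 8 tested markers passed, 7 were higher at an unadjusted p under 0.05 (14.9% of all features were) and the median difference was 5.09. By these sums replicate 2 stood apart from the other non-SMC lines. Without it, in a fit with no pair, 6 of the 8 passed as higher in SMC, where 7.86% of all features did. The line left out was singled out by these same markers, so this count is no further evidence about them. Most fibroblast markers ran the other way: 4 or 5 of 9 were detected in SMC lines (summed signal 0.513 to 2.52) and 8 or 9 in non-SMC lines (185 to 579), with Col1a1, Col3a1 and Lum detected in no SMC line. Thy1 (named after its values were seen) was higher in SMC by 0.91 without passing (limma adjusted p = 0.615). All 9 leukocyte markers on the array were detected in non-SMC replicate 3 (summed signal 15.1), against 3 to 6 in SMC lines (0.136 to 1.31), 3 in non-SMC replicate 1 (1.82) and 4 in non-SMC replicate 2 (4.14). Much of the signal in the non-SMC lines was the single gene Cd14 (log2 0.66, 1.96 and 3.54 in replicates 1 to 3, against -6.47 to -4.53 in SMC lines). Much of that in SMC replicate 3 was Lyz2 (log2 0.12). Alveolar and club cell markers were detected for 4 or 5 of 7 in SMC lines (0.387 to 14.6) and for 4 to 6 of 7 in non-SMC lines (0.931 to 2.61), and none of their 4 tested genes passed. The SMC replicates 1 and 2 and the non-SMC replicates 2 and 3 shared 1 slide, whereas the slides of SMC replicate 3 and non-SMC replicate 1 held no other line, so only pair 2 was free of a slide difference.

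Of the 10 neuropeptide genes, 6 were tested, namely Calca, Calcb, Grp, Cck, Gal and Cartpt, and none passed in either direction (limma, adjusted p over all features), whereas 0.156% of all features were higher and 3.03% were lower. With an unadjusted p under 0.05, 3 of the 6 were higher in SMC, Grp, Cartpt and Calcb, and none lower, while 14.9% of all features were higher and 11.8% lower at this level. Grp and Calcb passed the filter through the SMC arrays alone. Npy, detected in a non-SMC line alone, did not pass it, so the count says little about direction. Among the other 4 members, Nmu and Npy were detected on 2 and 1 of the 6 arrays, and Tac1 and Sst on no array. The genes fell into 3 kinds by their values. By their brightest probes Grp, Cartpt, Calca and Calcb were higher in the SMC lines and in non-SMC replicate 2 than in the other non-SMC lines. Of these, Calca was still at 1.31 in non-SMC replicate 3, and Calcb was at -5.37 to -3.76 in SMC lines. On the other Calca probe, SMC replicate 3 (0.79) lay near non-SMC replicate 3 (0.50). Gal and Cck had similar or mixed signals, and Npy was detected in non-SMC replicate 3 alone. The neuroendocrine markers other than Ncam1 had their lowest summed signals in the same 2 non-SMC lines as Grp and Cartpt, and their part in these results was not tested.

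Grp encodes gastrin-releasing peptide, the mammalian relative of bombesin. Its signal was -0.42, 0.17 and 0.59 in SMC replicates 1 to 3, against -8.46, -0.91 and -6.90 in non-SMC replicates 1 to 3. The groups did not overlap, a pattern found with SMC higher in 22.8% of all features, and the probe was detected on all 3 SMC arrays and on 1 of 3 non-SMC arrays. Within pairs 1, 2 and 3 the SMC line was higher by 8.04, 1.08 and 7.48, and the fitted difference of 5.54 ± 1.59 (SE, 3 pairs) did not pass (limma adjusted p = 0.143). With dim signals set to the lowest detected signal of their array, the difference was 4.66 (adjusted p = 0.127). Within the shared slide it was 3.78 (adjusted p = 0.351, 2 lines a group). Once non-SMC replicate 2 is left out, Grp is not detected in the other non-SMC lines, so only a bound remains. Grp was then at least 87.8-fold higher in SMC replicates 1 and 3 without pair 2, and at least 89.6-fold higher in the 3 SMC lines without non-SMC replicate 2. With dim signals at the lowest detected signal, both settings passed (limma adjusted p = 0.0271 without pair 2, and 0.00189 without non-SMC replicate 2 and with no pair in the fit). In both, the non-SMC values are the detection limits of 2 arrays, whose spread is not that of Grp. These p-values therefore add nothing to the bound. In these bulk samples, fewer cells that express a gene and less RNA per cell cannot be told apart.

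Cartpt encodes the precursor of the CART peptides, regulators of feeding and of stress responses in the brain. Its brighter probe gave 1.21, 1.60 and -0.23 in SMC replicates 1 to 3, against -5.65, -0.21 and -5.35 in non-SMC replicates 1 to 3, with detection on all 6 arrays. SMC replicate 3 lay just under non-SMC replicate 2, so the groups overlapped. The second probe showed the same order within each group except between non-SMC replicates 1 and 3, with 0.75, 1.03 and -0.69 in SMC lines and -6.33, -0.56 and -6.71 in non-SMC lines, of which replicate 2 alone was detected. By the brighter probe the SMC line was higher by 6.86, 1.80 and 5.12 in pairs 1 to 3, with a fitted difference of 4.60 ± 1.08 (SE, limma adjusted p = 0.117). The second probe gave 4.90 ± 1.20 (adjusted p = 0.117, every probe tested as a feature of its own). Cartpt passed without pair 2 (5.99, adjusted p = 0.0395) and without non-SMC replicate 2 in a fit with no pair (6.36, adjusted p = 0.00619). In these settings 2.64% and 7.86% of all features were called higher. Non-SMC replicate 2 was left out with its high signal known, so these calls are no further evidence about Cartpt. Within the shared slide, its difference was 4.18 (adjusted p = 0.277).

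Calca encodes, by alternative splicing, calcitonin and the alpha form of calcitonin gene-related peptide (CGRP), a vasodilator and a marker peptide of pulmonary neuroendocrine cells. Its probes carry the accessions of different RefSeq transcripts, and which exons they cover was not examined. The brighter probe (A_52_P154101) gave 4.96, 5.90 and 4.18 in SMC replicates 1 to 3, against -1.65, 5.45 and 1.31 in non-SMC replicates 1 to 3. On the other probe (A_51_P290826), the SMC lines gave 4.37, 4.89 and 0.79 and the non-SMC lines -2.10, 5.95 and 0.50. Both were detected on all 6 arrays, and on both the groups overlapped through non-SMC replicate 2, which was the brightest of the 6 lines on the second probe.

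The Calca probes parted in SMC replicate 3. By the brighter probe, pair 3 differed by 2.86, and by the other probe by 0.29, while pair 1 differed by 6.61 and 6.47. In pair 2 the sign itself differed, at 0.45 by the brighter probe and -1.05 by the other. The SMC lines spanned 1.72 on the brighter probe and 4.10 on the other. The fitted differences were 3.31 ± 1.29 (SE, limma adjusted p = 0.203) and 1.90 ± 1.63 (adjusted p = 0.493), and neither passed. With non-SMC replicate 2 left out and no pair in the fit, the brighter probe gave 5.18 (adjusted p = 0.0364). That line was left out with its high Calca signal known, so this call is no further evidence about Calca. Without pair 1 the difference of the brighter probe was 1.65 (adjusted p = 0.347), and within the shared slide 2.05 (adjusted p = 0.451).

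Calcb encodes the beta form of CGRP and is a close relative of Calca, so cross-hybridisation between their probes is possible and was not tested. Its signal was -4.23, -3.76 and -5.37 in SMC replicates 1 to 3, against -8.29, -4.83 and -6.91 in non-SMC replicates 1 to 3, where it was detected in replicate 2 alone. As on the brighter Calca probe, non-SMC replicate 2 lay within the range of the SMC lines. The difference was 2.23 ± 0.71 (SE, limma adjusted p = 0.159), positive in all 3 pairs (4.06, 1.08 and 1.54). It was 1.41 with dim signals at the lowest detected signal and 0.35 with normexp background correction, and within the shared slide 1.88 (adjusted p = 0.265). Without non-SMC replicate 2, Calcb was detected in no remaining non-SMC line and was at least 3.79-fold higher in SMC lines. With no pair in that fit it passed on the signals as measured (adjusted p = 0.0442) but not with dim signals at the lowest detected signal (adjusted p = 0.0912). The non-SMC values were undetected signals in the first and detection limits in the second, so neither measures the spread of Calcb there.

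Without non-SMC replicate 2 and with no pair in the fit, 4 of the 6 tested members were therefore higher in SMC, Grp, Cartpt, Calca and Calcb, where 7.86% of all features were. With dim signals at the lowest detected signal, 3 of the 6 were, Grp, Cartpt and Calca, against 7.07% of all features. Without pair 2 in the paired fit, 2 of 6 were higher, Grp and Cartpt, where 2.64% of all features were, and with dim signals at the lowest detected signal these 2 were again called, against 2.49%. These settings were chosen with earlier results of these lines known, and pair 2 is the one in which each of these 4 genes differed least. The counts are therefore no further evidence about these genes. Grp and Calcb were detected in none of the non-SMC lines that remained, so their calls rest on undetected signals or detection limits.

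**Figure D1:**
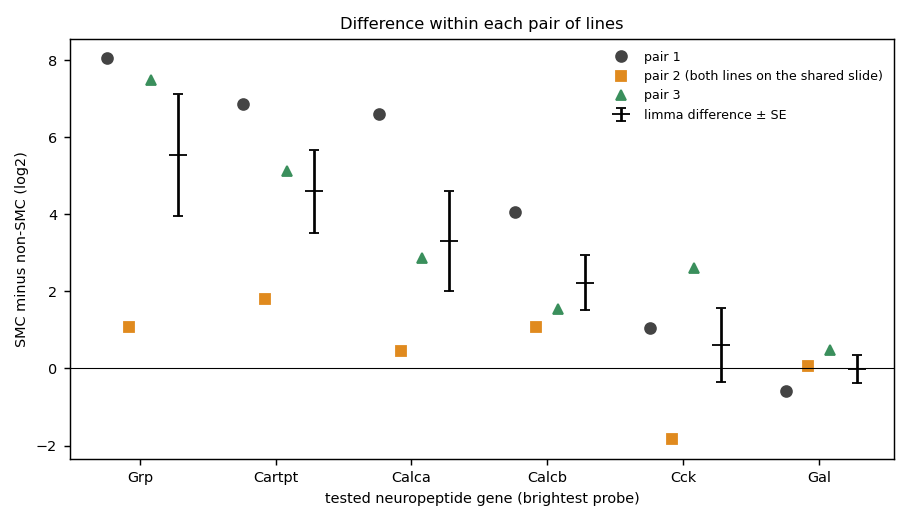
SMC minus non-SMC difference (log2) in pairs 1, 2 and 3 for the 6 tested neuropeptide genes, by the brightest probe of each, with the limma difference and its SE in black. Pair 2 has the smallest difference for Grp, Cartpt, Calca and Calcb and a negative one (-1.84) for Cck.

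Cck encodes cholecystokinin, a gut hormone and brain peptide. It was detected on all 6 arrays, at -3.35, -5.30 and -2.14 in SMC replicates 1 to 3, against -4.40, -3.46 and -4.76 in non-SMC replicates 1 to 3. The highest and the lowest signal both belonged to SMC lines, and the groups overlapped. The SMC line was higher in pairs 1 and 3 (1.05 and 2.61) and lower in pair 2 (-1.84), and the fitted difference was 0.61 ± 0.96 (SE, limma adjusted p = 0.713). Without non-SMC replicate 2 and with no pair it was 0.98 (adjusted p = 0.526), and without pair 2 it was 1.83 (adjusted p = 0.209).

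Gal encodes galanin, a neuropeptide of many neurons and endocrine cells. Its signal was -1.05, -1.03 and -0.89 in SMC replicates 1 to 3, against -0.45, -1.09 and -1.37 in non-SMC replicates 1 to 3. The 6 lines spanned 0.92, a range narrower than that of most features (median 1.62, with 19.4% of features narrower still). Grp spanned 9.05, wider than 97.3% of features, but its lowest signal (-8.46) was undetected, so its true span is not known. For Gal all 6 lines were detected. The groups overlapped, and the difference was -0.01 ± 0.35 (SE, limma adjusted p = 0.984).

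Npy encodes neuropeptide Y, a peptide of sympathetic nerves. The probe gave -8.31, -8.14 and -7.95 in SMC lines, none detected, against -7.29, -6.07 and -2.08 in non-SMC replicates 1 to 3, of which replicate 3 alone was detected. The non-SMC mean was at least 2.22-fold higher, with the SMC lines at the lowest detected signal of their arrays, and this mean rests on replicate 3. The gene was not tested, since neither group had it on all arrays. Non-SMC replicate 3 was also the line with all 9 leukocyte markers detected and the highest summed signal of them, much of it Cd14. Single markers differed in this: Tyrobp, a myeloid adaptor, was highest there (-0.26, against -5.10 in SMC replicate 3), whereas Lyz2, a lysozyme gene, was higher in SMC replicate 3 (0.12) than in non-SMC replicate 3 (-1.05). Both were named after their values were seen, and their part in the Npy signal was not tested.

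Nmu encodes neuromedin U, a peptide of gut and brain. It was detected in SMC replicate 2 at -5.52 and in non-SMC replicate 1 at -5.42, and lay between -6.80 and -6.10 elsewhere, not well above background. Tac1, the precursor of substance P and neurokinin A, was detected on no array, with -6.18, -8.10 and -8.14 in SMC lines and -8.42, -8.26 and -7.88 in non-SMC lines. Sst, the precursor of the inhibitory hormone somatostatin, was likewise detected on no array and lay between -8.09 and -6.46. For Tac1 and Sst the arrays give no level, and for none of the 3 was a difference between the groups detectable.

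By the rule for likeness, the 3 members with the widest range were set against every named gene detected on as many arrays, by the largest distance between the centred profiles over the 6 arrays. For Grp the rule named the stathmin gene Stmn3, Ankrd34b and the homeobox gene Cux2. Grp, Ankrd34b and Cux2 were not detected in non-SMC replicates 1 and 3, so their likeness there is one of undetected signals, and no distance or order is given. Stmn3, detected on all 6 arrays, lay at 4.27, 4.54 and 4.78 in SMC lines and -4.57, 3.44 and -2.20 in non-SMC lines, so it too was high in non-SMC replicate 2. Calca was nearest to Grhl1 (0.76), a grainyhead-like transcription factor, Nup210 (0.80) and Sel1l3 (0.84). For Cartpt, the nearest were Galnt14 (0.58), an enzyme of mucin-type glycosylation, the protocadherin gene Pcdhac2 (0.81) and Adgrb1 (0.84). These distances describe 6 arrays that share the group and pair structure.

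The receptors of these peptides were mostly dim. Of 28 receptor genes listed, 25 were on the array, 10 of them were detected on no array, and 7 were tested, none of which passed (median difference 0.13, against 0.18 over all features). At an unadjusted p under 0.05, Npy1r was higher and Grpr lower, while 14.9% of all features were higher and 11.8% lower. With dim signals at the lowest detected signal Grpr gave -2.44 (limma unadjusted p = 0.0666), so its place at that level rests on undetected signals. Grpr, the receptor of gastrin-releasing peptide, had a difference of the opposite sign to its ligand gene, at -6.48, -7.48 and -5.99 in SMC replicates 1 to 3 (detected in replicate 3), against -5.98, -4.40 and -0.89 in non-SMC replicates 1 to 3. The groups came within -5.99 and -5.98 of each other without overlap, as was the case with SMC lower for 15.4% of the tested features, and the difference of -2.89 ± 0.97 (SE) did not pass (limma adjusted p = 0.171). Without non-SMC replicate 3 and with no pair in the fit it was -1.46 (adjusted p = 0.309). That line was the one with all leukocyte markers detected, whose part in the Grpr signal was not tested.

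Npy1r, a receptor of neuropeptide Y, differed by 2.12 ± 0.36 (SE, limma adjusted p = 0.0772), with -1.21, 0.05 and -2.10 in SMC lines against -3.71, -1.41 and -4.50 in non-SMC lines. Its ligand gene was thus detected in non-SMC replicate 3 alone, the line with the lowest Npy1r signal. Ramp2 and Ramp3, membrane partners that set the ligand preference of the CGRP receptor family, had opposite signs, 1.85 ± 0.75 (adjusted p = 0.215) and -2.13 ± 1.56 (adjusted p = 0.429). Ramp2 passed without non-SMC replicate 2 and with no pair (3.06, adjusted p = 0.0398), and Ramp3 was 0.041 without pair 1. The line left out had the highest Ramp2 signal (-0.99, against -2.53, -1.12 and -1.02 in SMC lines), so that call is no further evidence about Ramp2. Calcrl, the receptor itself, and Ramp1, a partner of the same family, were each detected on at most 2 arrays of a group and were not tested. The galanin receptor Galr1, the cholecystokinin receptors Cckar and Cckbr and the somatostatin receptors Sstr1 and Sstr3 did not pass the filter either. These untested genes were chosen after their detection was seen.

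**Figure D2:**
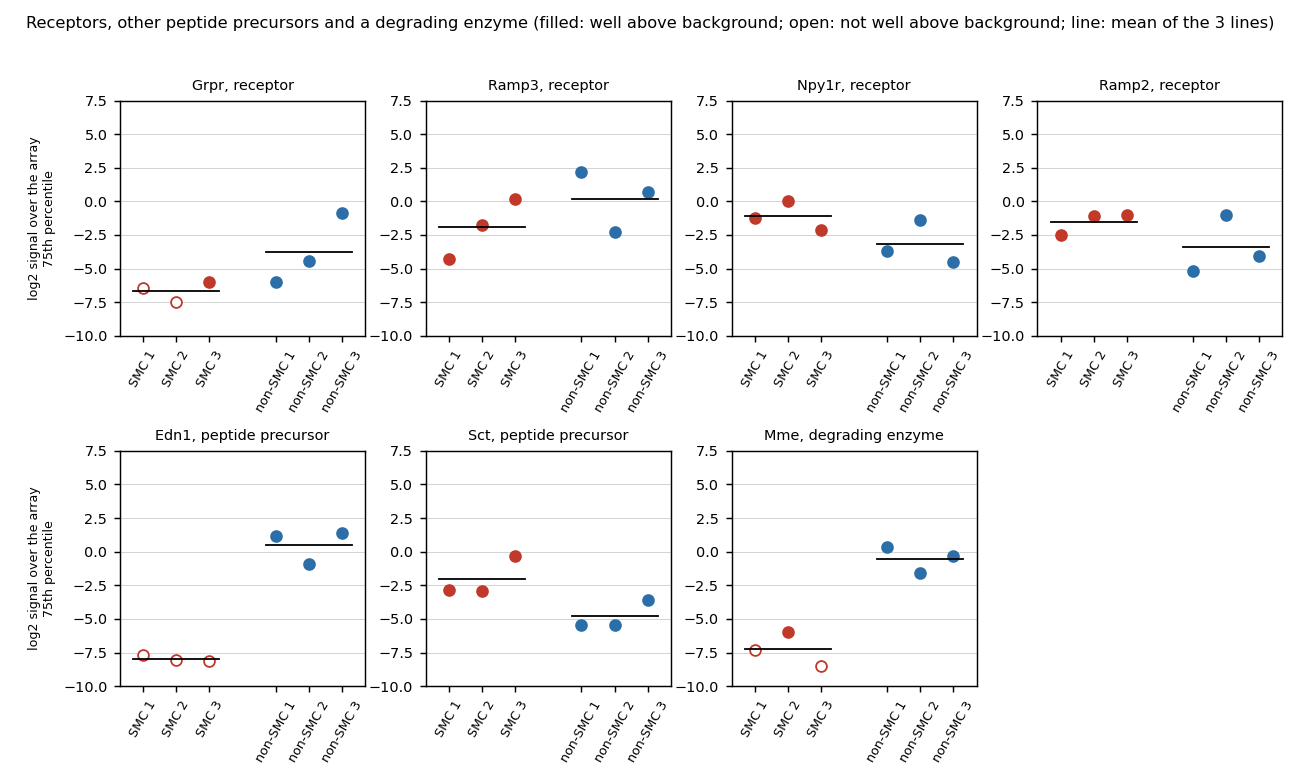
Log2 signal over the 75th percentile of the array (vertical axis) for 4 receptor genes, 2 other peptide precursors and 1 degrading enzyme, with SMC lines in red on the left and non-SMC lines in blue on the right, open points not well above background and lines for means of 3 lines. Edn1 and Mme are low in every SMC line and high in every non-SMC line, and Sct is the reverse at a smaller distance.

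Among other peptide precursors, 42 of the 49 listed were on the array and 23 were tested, of which 1 was higher and 1 lower in SMC and 21 did not pass (median difference 0.16). Without non-SMC replicate 2 and with no pair in the fit, Adm2 was higher and Edn1, Penk and Ucn2 were lower (Adm2, Penk and Ucn2 named after their values were seen). Of all 19847 features, 1559 were higher and 1147 lower in that fit. Adm2 was brightest in the line left out (-0.87, against -3.46, -2.49 and -4.57 in SMC lines). It was undetected in the remaining non-SMC lines, so its call there rests on undetected signals. With all lines Adm2 differed by 1.46 (limma adjusted p = 0.458), with the SMC line lower in pair 2 (-1.61). Sct, the gene of secretin, the gut hormone that drives pancreatic bicarbonate secretion, gave -2.82, -2.92 and -0.35 in SMC replicates 1 to 3, against -5.45, -5.42 and -3.56 in non-SMC replicates 1 to 3. The groups did not overlap, and the difference of 2.78 ± 0.31 (SE) passed (limma adjusted p = 0.0357). That call was kept in 6 of 20 other settings, was lost with no replicate block (adjusted p = 0.107), and was lost without pair 1, 2 or 3 (adjusted p = 0.126, 0.0709 and 0.184) and within the shared slide (1.62, adjusted p = 0.273). Without pair 1 or without pair 3, 0 of all features were called higher, so the losses there are not particular to Sct. Unlike Grp, Sct was as low in non-SMC replicate 2 as in non-SMC replicate 1. Edn1, the gene of the vasoconstrictor endothelin-1, was detected in no SMC line (-7.66, -8.09 and -8.10), against 1.14, -0.94 and 1.38 in non-SMC lines. With the SMC lines at the lowest detected signal, Edn1 was at least 113-fold lower there (-6.82, limma adjusted p = 0.0197). On the signals as measured, undetected in SMC lines, the difference was -8.47 ± 0.56 (SE, adjusted p = 0.0129). This call was lost without pair 1 (adjusted p = 0.071) or pair 3 (adjusted p = 0.067). Without pair 3, 0 of all features were called in either direction, so that loss is not particular to Edn1.

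Most peptide processing and granule genes were bright in the SMC lines and in non-SMC replicate 2 and dimmer in the other non-SMC lines. All 13 on the array were tested and none passed. At an unadjusted p under 0.05, 8 were above and 1, Furin, below, while 14.9% of all features were above and 11.8% below. The median difference was 4.53. The granin gene Chgb, a granule matrix protein, lay at 4.29, 3.64 and 5.10 in SMC replicates 1 to 3 and at -5.40, 2.02 and -2.07 in non-SMC replicates 1 to 3 (6.16 ± 1.69, SE, limma adjusted p = 0.137). Its relatives Chga (also among the neuroendocrine markers) and Scg3 and the convertase chaperone Scg5 differed by 5.74 ± 1.85, 5.16 ± 1.36 and 5.14 ± 1.38 (adjusted p = 0.161, 0.131 and 0.133). Pcsk1 and Pcsk2, the convertases that cut the precursors, and Cpe, the carboxypeptidase that trims them, were named after their values were seen. Pcsk2 was 2.85, 3.85 and 3.66 in SMC lines and 3.68 in non-SMC replicate 2, while the other non-SMC lines had -3.83 and -3.06. Cpe spanned 1.51 over the 6 lines, close to the median range of all features, at 3.85, 3.03 and 4.54 in SMC lines against 4.28, 3.62 and 3.67 in non-SMC lines (-0.05 ± 0.43, adjusted p = 0.949). Without non-SMC replicate 2 and with no pair in the fit, 8 of the 13 were higher in SMC, where 7.86% of all features were. That line was left out with its high signals of these genes known, so the count is no further evidence about them.

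**Figure D3:**
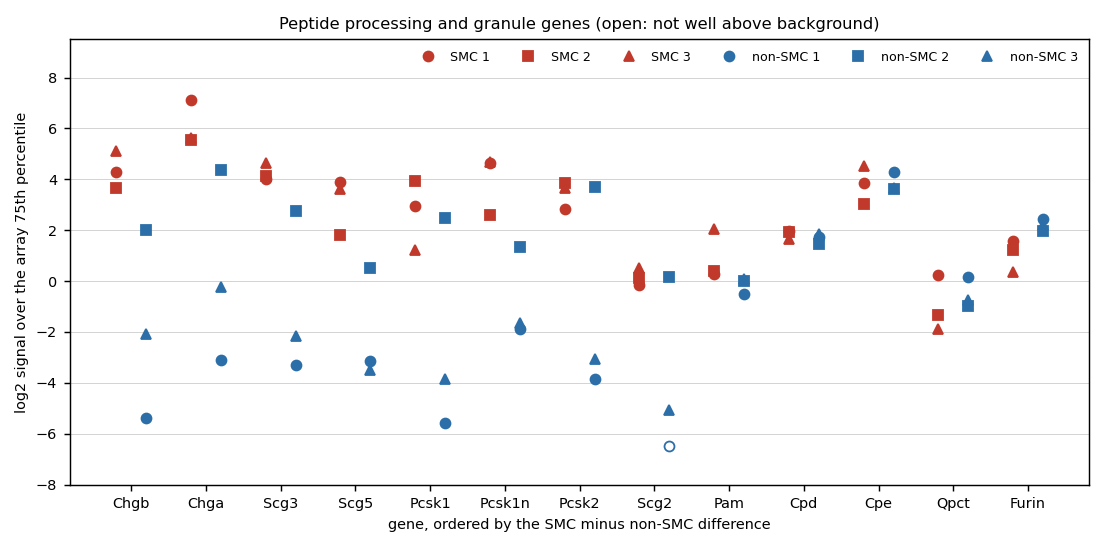
Log2 signal over the 75th percentile of the array (vertical axis) for 13 peptide processing and granule genes (horizontal axis), with SMC lines in red and non-SMC lines in blue, circles, squares and triangles for replicates 1 to 3, and open points not well above background. Non-SMC replicate 2 (blue squares) lies near the SMC lines for Pcsk2 and Scg2, and Cpe, Cpd and Furin are bright in all 6 lines.

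Of 11 peptide-degrading enzymes on the array, 10 were tested, 1 was lower in SMC, none was higher and 9 did not pass (median difference -0.32). At an unadjusted p under 0.05, 3 were lower and none higher, while 11.8% of all features were lower and 14.9% higher. Mme, the gene of neprilysin, a surface peptidase known to break down bombesin-like peptides, lay at -7.30, -5.98 and -8.47 in SMC replicates 1 to 3, of which replicate 2 alone was detected, against 0.36, -1.57 and -0.31 in non-SMC replicates 1 to 3. The groups did not overlap, and non-SMC replicate 2 was here on the side of the other non-SMC lines. The difference was -6.74 ± 0.87 (SE, limma adjusted p = 0.0464), or -5.72 with dim signals at the lowest detected signal (adjusted p = 0.0233). The call was lost without pair 1 or pair 3 (adjusted p = 0.181 and 0.165), with quantile normalization (adjusted p = 0.0546), with no filter (adjusted p = 0.0749) and in a fit of slide and pair together (adjusted p = 0.0991). Without pair 3, 0 of all features were called in either direction, so that loss is not particular to Mme. Within the shared slide the difference was -5.70 (adjusted p = 0.0502). Most tested fibroblast markers were, like Mme and Edn1, lower in SMC lines. Vim, an intermediate filament gene of mesenchymal cells, was -6.37, -6.54 and -5.66 in SMC lines and 7.67, 6.26 and 6.01 in non-SMC lines (-12.84 ± 0.55, adjusted p = 0.00744). Of the 8 tested fibroblast markers 5 were lower and 3 did not pass. Those 3 were Dcn (-4.51, but 5.24 in pair 1), Pdgfra (-2.87) and Thy1 (0.91, higher in SMC), named after their values were seen. Of 3 tested leukocyte markers Cd14 was lower (-7.71 ± 0.70, adjusted p = 0.0233). The part of the fibroblast and leukocyte markers in the Mme and Edn1 results was not tested.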

How the data were processed

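RNA of 6 primary mouse lung tumour lines was measured on Agilent single-colour arrays. Per the file headers, Feature Extraction 10.7.3.1 read the scans (the submitters' processing notes give 10.7). The array design is 014868 and the headers name the build mm9, so the only coordinates given are those of the RefSeq promoter sequences, in their own build. The deposited intensity used is the processed signal, background-subtracted within the array and not normalized between arrays, per the file headers. The deposited table of log2 values, used as an alternative, has the same median (5.06) in all columns. Against the log2 processed signals, a column and its own array correlated by at least 0.996, which settled its scale and direction; it is not centred per gene.

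Control spots (1639) and outlier spots were left out, spots of a probe averaged, and each array scaled to its 75th percentile (485 to 696 intensity units). Of 41174 probes, 27479 had a symbol. The brightest kept probe stood for a gene. The fit was limma 3.58.1 in R 4.3.3 (lmFit, eBayes, two-sided) with pair and group, 2 residual and 2.07 prior degrees of freedom, and Benjamini-Hochberg adjustment over 19847 features; it was tested on simulated data. The pairing comes from the labels. After the group means were taken off, the lines correlated by -0.01, 0.14 and 0.00 within pairs 1 to 3 and by -0.15 to 0.13 between lines of different pairs, so the values do not show it. The number of arrays limits the precision.

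Named genes were all members, and per further list up to 4 called genes with the largest difference or, if none was called, the 4 largest differences as values; the lists were receptors, other precursors, processing and degrading proteins, and markers of neuroendocrine, fibroblast, leukocyte, and alveolar and club cells. Markers of the last list are given by counts. Members, lists, rules and alternatives were chosen with earlier results of these data known. "At least N-fold" sets the mean of the detected group against the higher of the lowest detected signal and the signal of the probe itself on each array. The files hold no mean signal, so normexp (offset 50) used the median signal and median background. Some probes were without a usable spot on an array (50) and were not tested.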

Additional observations from a re-analysis of the deposited data

Results flagged for a closer look

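The Cck difference in the pair labelled male (-1.84) had the opposite sign to that in both pairs labelled female (1.05 and 2.61). A limma test of the male pair against the female pairs gave an adjusted p = 0.84. It sets 1 pair against 2 and was run after the signs had been seen, so it shows nothing about a difference between the sexes. The male pair is also the pair with both lines on 1 slide, so sex, pair and slide cannot be told apart here.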

How the results depend on the processing

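The count of neuropeptide genes higher in SMC, 0 as given, stayed at 0 in every alternative that kept all lines. With lines left out it ranged from 0 to 4, with 2 without pair 2 and 4 without non-SMC replicate 2 and the replicate block. The count of lower ones was 0 throughout. With no replicate block none of the 6 was called. The differences of Calca, Calcb, Grp and Cartpt were positive in all settings, from 1.63 to 5.18, 0.35 to 3.15, 2.48 to 7.79 and 2.90 to 6.36. That of Cck turned to -0.22 on the shared slide alone with no replicate block, and ranged from -0.39 to 1.83 with lines left out, negative without pair 3 and without SMC replicate 3 (-0.12). The difference of Gal (-0.013 as given) was 0.20 on the shared slide and -0.26 to 0.28 with lines left out, including 0.016, 0.0059 and 0.25 without SMC replicate 1, SMC replicate 2 and non-SMC replicate 1. Ramp3 ranged from -3.48 to 0.041, the last without pair 1.

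Features higher in SMC (31 as given) numbered 239 with median scaling, 54 with normexp, 7 with no filter, 4 with detection on all arrays, 274 with no replicate block, 9 with the slide as a block and 20 on the shared slide, and 0 to 1559 with lines left out. Features lower (601) numbered 973 with median scaling, 383 with no filter, 135 with detection on all arrays, 975 with no replicate block, and 0 to 1147 with lines left out. Without pair 1 limma called 0 higher (1491 at an unadjusted p under 0.05) and 209 lower, without pair 3 it called 0 in both directions (924 and 1743 at an unadjusted p under 0.05), and without pair 2 523 and 496. With no replicate block, leaving out non-SMC replicate 2 gave 1559 and 1147, SMC replicate 2 gave 80 higher, non-SMC replicate 1 gave 98 and non-SMC replicate 3 gave 17. The cause was not tested. Signal over background limits Tac1 and Sst in all lines, Nmu in 4, Npy in all but non-SMC replicate 3, and Grp and Calcb in non-SMC replicates 1 and 3, where only bounds can be given. The settings with dim signals at the lowest detected signal and lines left out together were chosen after seeing the data.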
